A study of Mus musculus with 4 samples.

Results

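Tubulins are the subunits of microtubules, and the tubulin tyrosine ligase-like enzymes attach amino acids to their tails. The genes described here are the protein-coding features of the deposited table whose symbol is a numbered alpha-, beta-, gamma-, delta- or epsilon-tubulin (Tuba, Tubb, Tubg, Tubd, Tube), a numbered Ttll gene, or Ttl. They number 33 of the 31600 features: 7 alpha-tubulins, 8 beta-tubulins, 2 gamma-tubulins, 2 delta- and epsilon-tubulins and 14 ligase genes. The rule reads names and no measured value, though the family was picked with earlier results of these data known. RNA had been measured in mouse spermatogonial stem cells, the stem cells of the male germline, in 2 libraries of a control group whose genotype is labelled WT and in 2 libraries of a group labelled Differentiation. The labels give no strain, age, treatment, agent or time for either group, and leave unstated whether replicates were separate cultures or animals. The p-values therefore hold only the spread between these libraries, which may be technical. Values are FPKM, the fragments of a gene scaled to the length of its exons and to the depth of the library, as the authors deposited them. Because FPKM is scaled to length, levels of different genes are set side by side below, but only roughly. The length that fits the values is that of all annotated exons merged, which can exceed the transcripts made. How reads shared by similar genes were divided is not stated.

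Microtubules are built from dimers of alpha- and beta-tubulin. Gamma-tubulin starts new microtubules, and delta- and epsilon-tubulin belong to the triplet microtubules of centrioles. In the male germline microtubules form the meiotic spindle, later the manchette that shapes the sperm head, and the axoneme of the sperm tail. Mammals carry several alpha- and beta-tubulin genes that differ mostly in their tails: in the mouse, Tuba3a and Tuba3b are known as testis alpha-tubulins, and Tubb4b is a broadly used beta-tubulin that is also abundant in testis and in cilia. Ttl restores the last tyrosine of alpha-tubulin, other enzymes of the family add glutamate chains (glutamylases) or glycine chains (glycylases), and axonemes are rich in both.

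The start regions of 6 of these genes are shown because they hold the testis pair (Tuba3a and Tuba3b), the most abundant beta-tubulins (Tubb4b and Tubb5, which moved in opposite directions), the ligase gene with the largest ratio (Ttll6), and Ttll9 as an example of a ligase gene with the X-box word. Ttll3, Ttll5, Ttll8 and Ttll10 hold that word too. Each runs 5′ to 3′ on the strand of the gene, from 250 bases before the RefSeq start to 50 bases after it, in GRCm38.p6. Capitals mark the words CCAAT, TGACGTCA (the cyclic AMP response element), GTTGCC (the core of the X-box bound by RFX factors) and the MYB words TAACGG and CAACTG with their variants TAACTG as well as CAACGG, searched on both strands. MYB words read on the opposite strand can share letters with GTTGCC.

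Tuba3a, chr6:125286032-125286331, minus strand: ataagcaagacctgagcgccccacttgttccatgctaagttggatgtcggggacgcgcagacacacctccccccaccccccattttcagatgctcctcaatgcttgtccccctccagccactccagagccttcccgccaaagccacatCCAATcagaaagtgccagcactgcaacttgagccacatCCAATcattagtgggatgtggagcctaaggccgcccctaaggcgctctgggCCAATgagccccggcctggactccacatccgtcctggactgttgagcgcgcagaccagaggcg

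Tuba3b, chr6:145615713-145616012, plus strand: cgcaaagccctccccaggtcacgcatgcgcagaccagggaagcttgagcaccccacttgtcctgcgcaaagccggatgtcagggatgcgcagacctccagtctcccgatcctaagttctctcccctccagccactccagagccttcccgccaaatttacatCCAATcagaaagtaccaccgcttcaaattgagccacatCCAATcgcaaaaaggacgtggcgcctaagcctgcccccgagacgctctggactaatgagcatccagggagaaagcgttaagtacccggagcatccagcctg

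Tubb4b, chr2:25224653-25224952, minus strand: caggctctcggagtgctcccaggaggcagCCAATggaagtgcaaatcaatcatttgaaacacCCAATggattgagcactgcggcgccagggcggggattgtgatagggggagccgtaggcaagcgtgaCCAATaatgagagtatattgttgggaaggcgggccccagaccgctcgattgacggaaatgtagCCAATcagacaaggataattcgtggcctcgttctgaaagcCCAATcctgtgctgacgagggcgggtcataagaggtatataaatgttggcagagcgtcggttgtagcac

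Tubb5, chr17:35838252-35838551, minus strand: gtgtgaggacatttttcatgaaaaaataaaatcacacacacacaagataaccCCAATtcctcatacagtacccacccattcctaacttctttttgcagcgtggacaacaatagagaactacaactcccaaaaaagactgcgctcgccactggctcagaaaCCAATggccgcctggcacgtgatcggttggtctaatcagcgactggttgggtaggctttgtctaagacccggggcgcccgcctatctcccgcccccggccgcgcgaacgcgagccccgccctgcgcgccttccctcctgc

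Ttll6, chr11:96133536-96133835, plus strand: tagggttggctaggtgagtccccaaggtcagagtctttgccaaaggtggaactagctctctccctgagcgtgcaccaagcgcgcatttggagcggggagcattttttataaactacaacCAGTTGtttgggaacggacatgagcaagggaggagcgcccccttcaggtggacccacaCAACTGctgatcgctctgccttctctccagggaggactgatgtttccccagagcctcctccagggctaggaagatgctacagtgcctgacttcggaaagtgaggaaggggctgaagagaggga

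Ttll9, chr2:152962235-152962534, plus strand: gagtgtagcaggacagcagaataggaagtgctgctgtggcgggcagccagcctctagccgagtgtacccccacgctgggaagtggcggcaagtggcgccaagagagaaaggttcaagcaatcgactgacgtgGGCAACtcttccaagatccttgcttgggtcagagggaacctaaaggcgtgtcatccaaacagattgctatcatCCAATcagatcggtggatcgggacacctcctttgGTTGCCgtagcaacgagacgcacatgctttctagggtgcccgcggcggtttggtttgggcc

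The start regions of Tuba3a and Tuba3b were alike: 204 of 335 aligned columns were identical (60.9%), against 45.8% between Tuba3a and Tuba1b and 45.0% between Tuba3b and Tuba1b. CCAAT lay 102, 64 and 13 bases before the start of Tuba3a and 89 and 51 bases before that of Tuba3b. Tubb4b held CCAAT 5 times, at 221, 188, 122, 59 and 19 bases before its start, and Tubb5 held it at 198 and 90. Ttll9 had GTTGCC 118 and 11 bases before its start, and Ttll6 had MYB words at 131 and 73. RefSeq start regions were matched for 28 of the 33 genes. CCAAT was found in 16 of these 28 genes, and in 37.4% of the 32544 distinct start regions of that length in the table. GTTGCC was found in 7 of the 28 genes and in 12.4% of all regions, the MYB words in 9 and in 28.3%, and TGACGTCA in 1, Tubb2a, and in 1.80%. These are matches of letters, which were not tested for binding.

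Of the 33 genes 29 had a mean of at least 0.5 FPKM over the 4 libraries and were tested with limma on log2(FPKM + 1). At an adjusted p under 0.05, 14 of the 29 rose and 9 fell in differentiation, where 29.6% of all 23138 features tested rose, 27.0% fell and 56.6% went either way. Among the 14, Ttll6, Ttll8 and Ttll11 were under 0.5 FPKM in the control mean and passed the filter only through differentiation. The median difference of the 29 was 0.19 on the log2(FPKM + 1) scale, against 0.01 over all features tested. After quantile normalization 12 rose and 12 fell, where 25.0% and 32.9% of all features did. The control and differentiation libraries did not overlap in any of the 29, which was also so for 79.9% of all features tested. The genes without a test, Tuba8, Tubb1, Tubb4a and Ttll2, were near the limit of detection, with 2 to 13 fragments per library and a mean of at most 0.215 FPKM. By the adjusted p of the authors' deposited table, 15 of the 33 genes were higher and 10 lower at the same threshold, where 22.0% and 20.3% of all features were. No gene was called in opposite directions by the deposited table and by limma, which used the same libraries.

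**Figure D1:**
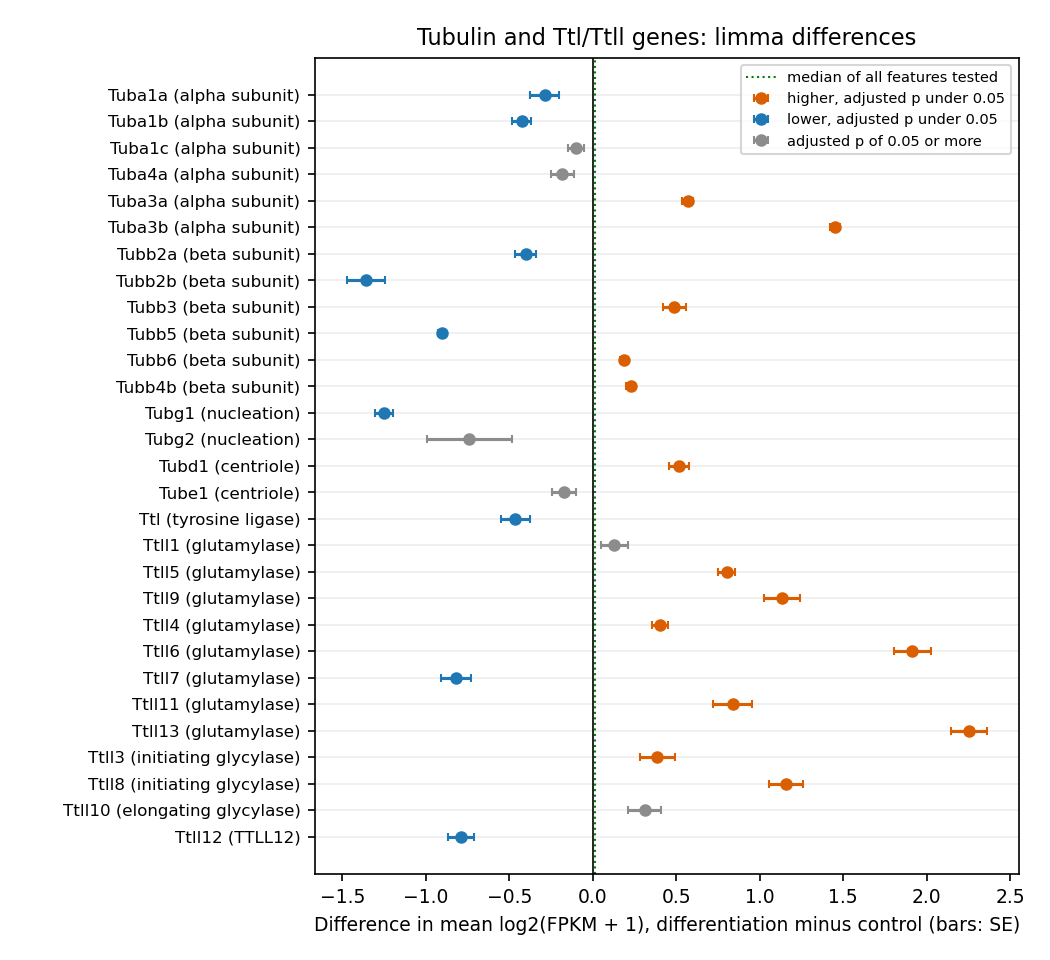
Difference in mean log2(FPKM + 1) between differentiation and control (horizontal axis) for the 29 tested genes, with bars for the limma standard error; colours give the call at an adjusted p under 0.05, and the dotted line marks the median of all features tested. Ttll13 and Ttll6 lie farthest to the right, at 2.25 and 1.91, and Tubb2b and Tubg1 farthest to the left, at -1.36 and -1.25.

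The libraries differ in their germ cell and somatic markers, and each count below stands beside the 29.6% higher and 27.0% lower of all features tested. Markers of undifferentiated spermatogonia were present in control, at a summed 176 and 179.8 FPKM over 16 genes, and at 65.3 and 65.0 in differentiation, where 12 of 15 tested fell and 1, Id4, rose. Markers of differentiating spermatogonia fell in 5 of 6, from a summed 338 and 345 FPKM to 183 and 186. The 16 spermatocyte markers summed to 178 and 183 FPKM in control and to 1173 and 1189 in differentiation, and all 16 rose. Some of these, and some spermatid markers, had control means under 0.5 FPKM and passed the filter only through differentiation. Spermatid markers rose in 6 of 9 tested and fell in 0. The list summed to 17.4 to 19.4 FPKM in control and 47.0 to 48.2 in differentiation. Its members of highest mean FPKM, Odf2, Oaz3 and Acr, rose, with log2 differences of 1.74, 0.98 and 2.95. Prm2, Odf1 and Akap4, outside the naming rule and not tested, were at 0.755 FPKM or less in every library. Of the markers of other cells, those of fibroblasts and peritubular cells fell in 12 of 15 (summed 425 to 428 against 141 to 150.2 FPKM, led by Thbs1, Col1a1 and Acta2). Macrophage and leukocyte markers fell in 6 of 9 tested and rose in 2 (61.7 to 64.3 against 22.2 in both differentiation libraries), and Sertoli markers fell in 5 and rose in 4 of 12 (314 to 323 against 246 to 265). Without Vim, left out after its values were seen, the Sertoli sum was 186 and 189 FPKM in control and 202 and 188 in differentiation. Leydig markers fell in 2 and rose in 1 of 4 tested (37.1 to 38.2 against 21.1 to 21.3 FPKM), and endothelial markers fell in 1 and rose in 0 of 5 (13.2 to 13.4 against 8.26 to 8.47). No marker among the deposited features was at 0 in all 4 libraries. The listed markers Tnp1 and Smcp (spermatids), Rhox5 (Sertoli) and Insl3 (Leydig) were absent from those features. In such bulk samples fewer cells of a type and less RNA per cell cannot be told apart, and the part of these cell types in the results below was not tested.

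The testis alpha-tubulins rose and the somatic ones fell or did not pass the test. Tuba3b (ENSMUSG00000067338, chr6:145615757-145621479, plus strand, GRCm38) was at 78.1 and 79.3 FPKM in the control libraries and at 214 and 219.5 FPKM in the differentiation libraries. The groups lay far apart relative to their spread: the mean was 2.76-fold higher in differentiation (78.7 ± 0.834 against 217 ± 3.86 FPKM, SD, n = 2 per group), with a log2 difference of 1.45 (SE 0.03, limma adjusted p = 9.76e-05). Tuba3a (ENSMUSG00000067702, chr6:125278274-125286042, minus strand) was the most abundant alpha-tubulin in all 4 libraries, at 183 and 178 FPKM in control and 267 and 268 FPKM in differentiation. It rose by less, 1.48-fold (log2 difference 0.57, SE 0.03, limma adjusted p = 5.00e-04). The pair thus drew together: the ratio of Tuba3b to Tuba3a was 0.427 and 0.446 in control and 0.801 and 0.818 in differentiation. The pair was already high in control, where Tuba3a ranked 37 and Tuba3b 177 by mean FPKM among protein-coding genes, and ranked 26 and 30 in differentiation. Of the 2 genes, 12.3% of the 100-base stretches of Tuba3a transcripts and 11.8% of those of Tuba3b also occur in transcripts of another gene, mainly of each other. For 50-base stretches the shares were 35.3% and 29.5%, so their ratio depends on how shared reads were divided.

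Tuba1a, Tuba1b and Tuba1c, neighbours on chromosome 15, supply alpha-tubulin in most somatic and dividing cells. Tuba1b, the most abundant of them, was at 71.2 and 68.9 FPKM in control and 54.6 and 49.3 FPKM in differentiation (log2 difference -0.43, SE 0.06, limma adjusted p = 5.32e-03). Tuba1a was at 34.3 and 34.7 FPKM in control and 30.5 and 25.8 FPKM in differentiation, and its call was marginal (log2 difference -0.29, limma adjusted p = 0.0495). It did not hold when control replicate 1 (difference -0.30, adjusted p = 0.132) or control replicate 2 (-0.28, adjusted p = 0.149) was left out. Without differentiation replicate 1 the difference was -0.41 (adjusted p = 0.0146), and without differentiation replicate 2 it was -0.17 (adjusted p = 0.0458). The Tuba1a call was also lost with pseudocounts of 0.1 and 0.5, without the filter and with a prior variance without trend (adjusted p = 0.0503 to 0.0853). Tuba1c was at 30.5 and 30.4 FPKM in control and 29.5 and 27.1 FPKM in differentiation and did not pass (limma adjusted p = 0.145). Tuba1c passed as lower after median centring, after quantile normalization (limma adjusted p = 0.0143) and without differentiation replicate 1. These 3 genes are hard to separate: 65.8%, 65.2% and 46.0% of the 100-base stretches of Tuba1a, Tuba1b and Tuba1c also occur in other transcripts, mainly of each other, and the authors' division of such reads between copies is not stated in the labels. Tuba4a, an alpha-tubulin whose gene lacks the codon for the last tyrosine, was at 4.44 and 4.27 FPKM in control and 3.74 and 3.70 in differentiation (limma adjusted p = 0.0818). This gene passed as lower after median centring and after quantile normalization. Its exons overlap those of Stk16 on the opposite strand over 37.3% of their length. Tuba8, known from muscle and testis, was at 0.114 to 0.282 FPKM and was not tested.

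As a share of the summed alpha-tubulin FPKM, Tuba3a and Tuba3b together held 65.0% in each control library and 80.2% and 82.1% in the differentiation libraries. Tuba1a, Tuba1b and Tuba1c together held 33.9% in each control library and 19.1% and 17.2% in differentiation. Within the testis pair it was Tuba3b whose share differed, at 19.5% and 20.1% in control and 35.7% and 37.0% in differentiation, while Tuba3a stayed between 44.5% and 45.6% in all 4 libraries. The shares take the authors' division of reads between copies as given.

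**Figure D2:**
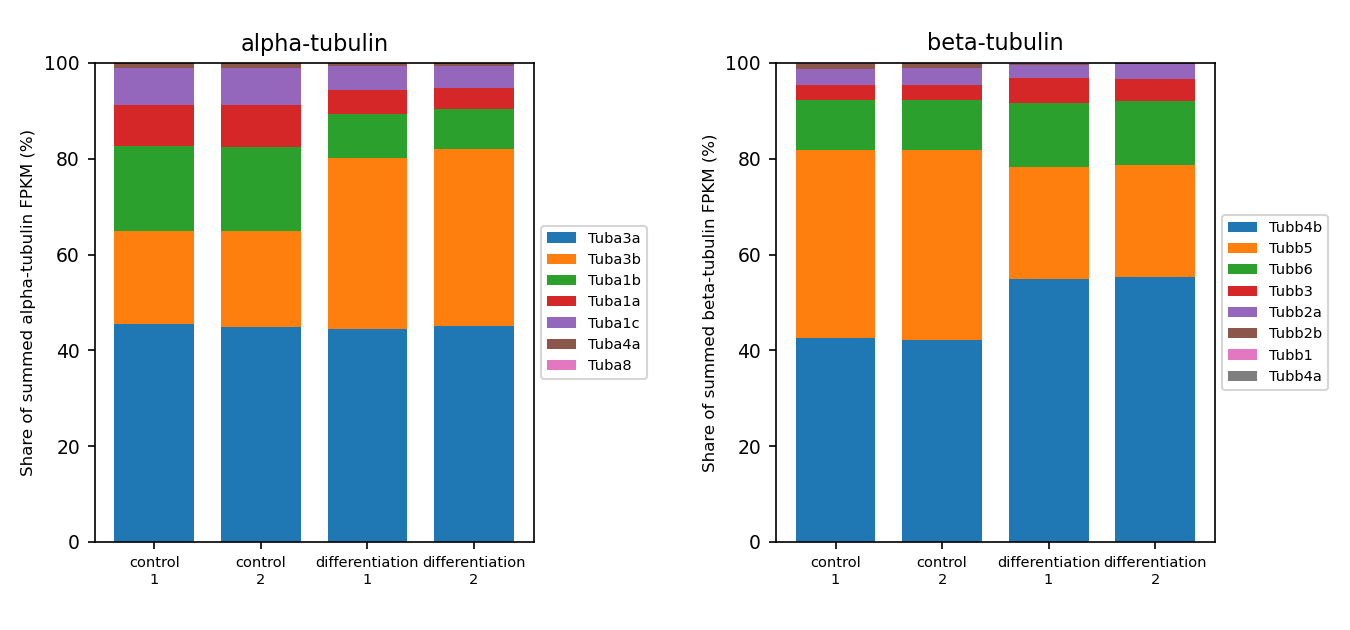
Share of each isotype in the summed FPKM of the alpha-tubulins (left) and of the beta-tubulins (right), as stacked bars in percent for the 4 libraries. Tuba3b widens from 19.5% and 20.1% to 35.7% and 37.0%, and Tubb5 narrows from 39.3% and 39.6% to 23.4% and 23.3%.

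Among the beta-tubulins 3 of 6 tested rose and 3 fell, where 29.6% and 27.0% of all features did, and the most abundant pair parted. Tubb5 (ENSMUSG00000001525, chr17:35833921-35838306, minus strand), a main beta-tubulin of dividing somatic cells, was at 149 FPKM in each control library and at 79.9 and 78.6 FPKM in differentiation. It was 1.88-fold lower (148.9 ± 0.075 against 79.2 ± 0.949 FPKM, SD, n = 2 per group; log2 difference -0.90, SE 0.03, limma adjusted p = 1.51e-04). Tubb4b (ENSMUSG00000036752, chr2:25222160-25224702, minus strand) was at 161 and 159 FPKM in control and at 188 and 186 FPKM in differentiation, a smaller rise of 1.17-fold (log2 difference 0.23, SE 0.03, limma adjusted p = 3.66e-03). In control these 2 genes were nearly level, with a Tubb4b to Tubb5 ratio of 1.08 and 1.06, and in differentiation the ratio was 2.35 and 2.37. Tubb4b made up 42.5% and 42.2% of the summed beta-tubulin FPKM in control and 54.9% and 55.3% in differentiation. No 100-base stretch of Tubb5 transcripts occurs in another gene's transcripts, and 22.0% of those of Tubb4b do, mainly in the pseudogene Tubb4b-ps1 and the overlapping gene Fam166a.

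The less abundant beta-tubulins also went both ways. Tubb6, broadly used in somatic cells, was at 39.4 and 39.7 FPKM in control and 45.4 and 44.9 FPKM in differentiation (log2 difference 0.19, limma adjusted p = 5.58e-03), and the call was lost after quantile normalization (adjusted p = 0.0737). Tubb3, best known from neurons and also made in Sertoli cells, was at 11.8 and 11.7 FPKM in control and 17.98 and 15.9 FPKM in differentiation (log2 difference 0.49, limma adjusted p = 5.92e-03). Tubb2a and Tubb2b, a neighbouring pair on chromosome 13 known from the nervous system, both fell. Tubb2b, at 4.03 and 3.86 FPKM in control and 1.08 and 0.792 FPKM in differentiation, had the largest decrease of the 29 tested genes: 4.22-fold lower, with a log2 difference of -1.36 (SE 0.11, limma adjusted p = 1.47e-03). Tubb2a was at 13.2 and 12.9 FPKM in control and at 9.16 and 10.2 FPKM in differentiation (log2 difference -0.40, limma adjusted p = 8.14e-03). Of the 100-base stretches of Tubb2a and Tubb2b, 36.9% and 26.0% occur in other transcripts, mainly of each other. Tubb1, the beta-tubulin of platelets, and Tubb4a, of the brain, were at 0.0689 to 0.320 and 0.110 to 0.261 FPKM.

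Within each group the order of the 5 most abundant beta-tubulins by deposited FPKM began with Tubb4b, Tubb5 and Tubb6. Tubb2a came before Tubb3 in control, and Tubb3 before Tubb2a in differentiation. Within a group the 2 libraries of neighbouring genes in these orders did not overlap. The summed alpha-tubulin FPKM was 402 and 395 in control and 599.8 and 594 in differentiation, while the summed beta-tubulin FPKM was 379 and 376 in control and 342 and 337 in differentiation. The ratio of summed alpha to summed beta was therefore 1.06 and 1.05 in control and 1.76 in both differentiation libraries. These sums are of RNA levels, and protein was not measured. Both the orders and the sums take the authors' division of reads between copies as given.

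**Figure D3:**
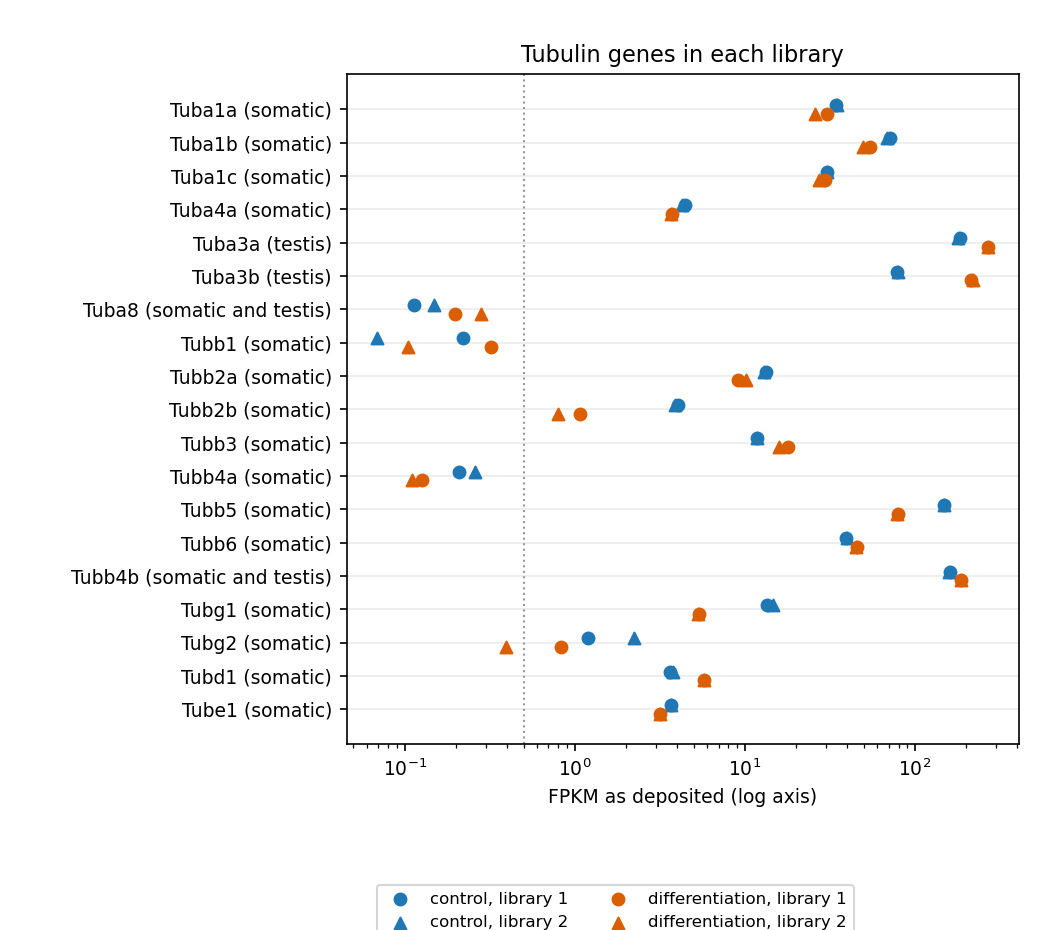
FPKM of the 19 tubulin genes in each library on a log axis, with control in blue and differentiation in orange, circles for replicate 1 and triangles for replicate 2; the dotted line marks 0.5 FPKM. Tuba3a, Tuba3b and Tubb4b are the highest genes in differentiation, and Tubb5 drops from 149 FPKM to 79.9 and 78.6 FPKM.

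Of the tubulins outside the dimer, gamma-tubulin fell. Tubg1, the main gamma-tubulin (ENSMUSG00000035198, chr11:101119938-101126419, plus strand), was at 13.6 and 14.6 FPKM in control and at 5.36 and 5.33 FPKM in differentiation, 2.63-fold lower (log2 difference -1.25, SE 0.05, limma adjusted p = 3.12e-04). Tubg2, its neighbour known from the brain, was at 1.20 and 2.24 FPKM in control and at 0.834 and 0.392 FPKM in differentiation, on 41 and 81 against 26 and 14 fragments. The control libraries of Tubg2 differed almost as much from each other as from differentiation, and it did not pass (limma adjusted p = 0.0693). It passed without control replicate 1 (adjusted p = 0.0438), in limma-voom on fragments (log2 difference -1.54, SE 0.39, adjusted p = 1.29e-03) and in the authors' deposited table (adjusted p = 3.60e-03). Tubd1, delta-tubulin, went the other way, from 3.65 and 3.77 FPKM in control to 5.74 FPKM in each differentiation library (log2 difference 0.52, SE 0.06, limma adjusted p = 3.59e-03). Tube1, epsilon-tubulin, was at 3.70 and 3.66 FPKM in control and 3.15 and 3.16 in differentiation and did not pass (limma adjusted p = 0.105), though it passed as lower after quantile normalization (adjusted p = 0.0380) and in limma-voom (adjusted p = 0.0165).

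The ligases were mostly low in control and mostly higher in differentiation. Of 13 tested, 8 rose and 3 fell, where 29.6% of all features tested rose and 27.0% fell. Ttll6, Ttll8, Ttll10 and Ttll11 had control means of 0.149, 0.152, 0.421 and 0.463 FPKM. They passed the filter of 0.5 FPKM only through differentiation, so they could enter the test only with a higher level there. Ttll6, Ttll8 and Ttll11 are among the 8 that rose. Among the glutamylases 6 of 8 tested rose and 1 fell, with a median log2 difference of 0.82, and their summed FPKM was 25.1 and 24.6 in control and 45.9 and 48.5 in differentiation. Because log2(FPKM + 1) understates the change of low genes, ratios of mean FPKM are given beside it. Each ratio of a gene under 1 FPKM rests on the fragments given with it.

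Ttll6, Ttll11 and Ttll13 are glutamylases that lengthen glutamate chains. Ttll6 (ENSMUSG00000038756, chr11:96133786-96165451, plus strand) was at 0.160 and 0.138 FPKM in control, on 12 and 11 fragments, and at 3.06 and 3.62 FPKM in differentiation, on 210 and 284 fragments. This was the largest ratio of all 33 genes, 22.4-fold (log2 difference 1.91, SE 0.11, limma adjusted p = 5.88e-04; 4.44, SE 0.37, in limma-voom on fragments). Ttll13 (ENSMUSG00000045467, chr7:80246376-80260821, plus strand) was at 1.31 and 1.19 FPKM in control and at 8.87 and 10.6 FPKM in differentiation, 7.80-fold higher, and had the largest log2 difference (2.25, SE 0.11, limma adjusted p = 3.75e-04). Ttll11 was at 0.409 and 0.517 FPKM in control, on 32 and 43 fragments, and at 1.45 and 1.78 FPKM in differentiation, 3.49-fold higher (limma adjusted p = 5.79e-03). In all 3 genes the groups did not overlap, as in 79.9% of all features tested. By log2 difference Ttll13 ranked 318 and Ttll6 446 among the 14397 protein-coding genes tested, from the highest.

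Ttll1, Ttll5 and Ttll9 are glutamylases whose mouse mutants have sperm defects. Ttll9 was at 0.795 and 0.596 FPKM in control, on 54 and 43 fragments, and at 2.66 and 2.77 FPKM in differentiation, 3.90-fold higher (log2 difference 1.13, SE 0.11, limma adjusted p = 2.05e-03). Ttll5 was at 5.27 and 5.39 FPKM in control and at 9.83 and 10.2 FPKM in differentiation, 1.88-fold higher (log2 difference 0.80, SE 0.05, limma adjusted p = 7.10e-04). Ttll1, the catalytic subunit of a glutamylase complex, was at 2.57 and 2.69 FPKM in control and 2.93 and 3.01 in differentiation and did not pass (limma adjusted p = 0.230), a log2 difference of 0.13 with a standard error of 0.08.

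Ttll4 starts glutamate chains, and Ttll7 is the glutamylase best known from neurons. Ttll4, the most abundant ligase gene in differentiation, was at 11.8 and 11.1 FPKM in control and at 15.7 and 15.3 FPKM in differentiation (log2 difference 0.40, limma adjusted p = 3.21e-03). Ttll7 was the glutamylase that fell, from 2.62 and 2.71 FPKM in control to 1.12 and 1.03 FPKM in differentiation, 2.47-fold lower (log2 difference -0.82, SE 0.09, limma adjusted p = 3.09e-03). Ttll2 stayed at 0.158 to 0.312 FPKM, on 5 to 9 fragments, with groups that overlapped, and 57.7% of its 100-base stretches occur in other transcripts.

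Of the 3 glycylases, Ttll3 and Ttll8 passed as higher and Ttll10 did not pass. Ttll8, which with Ttll3 places the first glycine on tubulin, was at 0.120 and 0.184 FPKM in control, on 8 and 13 fragments, and at 1.49 and 1.65 FPKM in differentiation, on 91 and 115 fragments. Its ratio of 10.3 was the second largest after that of Ttll6 (log2 difference 1.16, SE 0.10, limma adjusted p = 1.57e-03). Ttll3 was at 1.83 and 1.69 FPKM in control and at 2.42 and 2.82 FPKM in differentiation (log2 difference 0.39, limma adjusted p = 0.0358). The Ttll3 call did not hold when any 1 of the 4 libraries was left out. It was also lost without the filter (limma adjusted p = 0.0508) and after median centring (0.0635) or quantile normalization. With the replicate number as a block the call was lost too (limma adjusted p = 0.0711). Ttll3 shares 5.61% of its exonic bases with Arpc4 on the same strand. Ttll10, which lengthens glycine chains, was at 0.477 and 0.365 FPKM in control and at 0.762 and 0.764 FPKM in differentiation, on 30 to 62 fragments, and missed the threshold (limma adjusted p = 0.0562). It passed in limma-voom (adjusted p = 7.42e-03) and in the authors' deposited table (adjusted p = 0.0493).

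Ttl and Ttll12 moved against most of the family. Ttl, the tyrosine ligase, was at 2.70 and 2.76 FPKM in control and at 1.67 and 1.74 FPKM in differentiation, 1.60-fold lower (log2 difference -0.46, SE 0.09, limma adjusted p = 0.0127). Leaving out any 1 of the 4 libraries ended that call, with adjusted p from 0.0560 to 0.0692 and log2 differences from -0.48 to -0.44. Ttll12, a family member with no established ligase activity on tubulin, was at 14.8 and 14.6 FPKM in control, the highest ligase gene there, and at 8.73 and 7.48 FPKM in differentiation (log2 difference -0.79, SE 0.08, limma adjusted p = 2.26e-03).

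**Figure D4:**
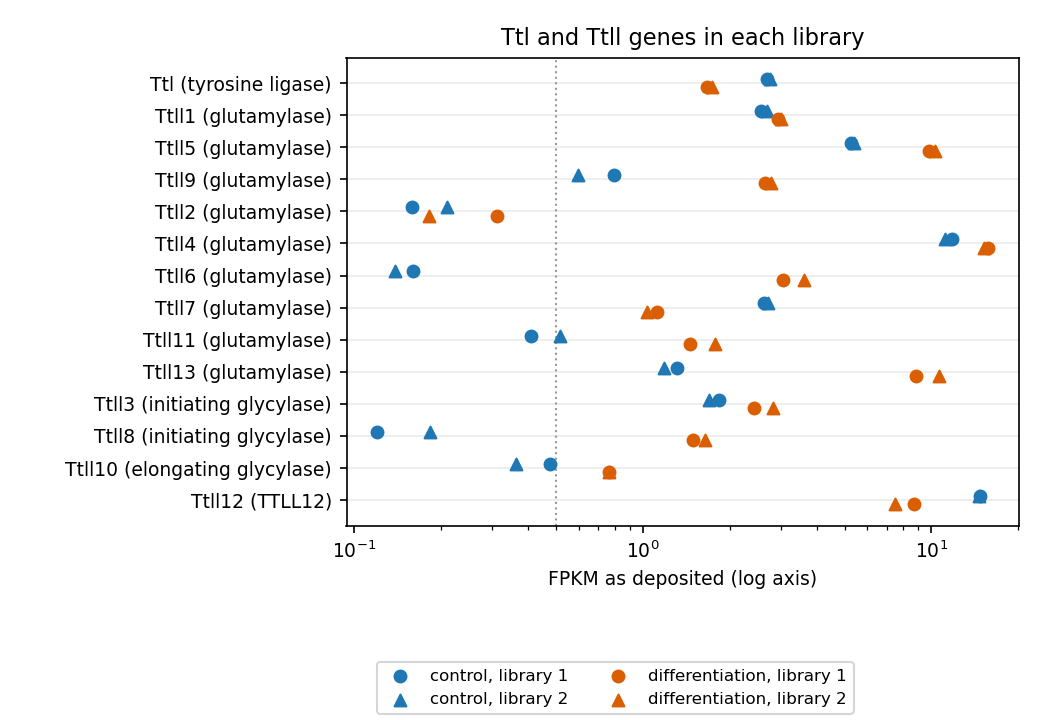
FPKM of Ttl and the 13 Ttll genes in each library on a log axis, with control in blue and differentiation in orange, circles for replicate 1 and triangles for replicate 2; the dotted line marks 0.5 FPKM. Ttll6, Ttll8, Ttll9, Ttll11 and Ttll13 shift to the right by 3.49-fold or more, and Ttl, Ttll7 and Ttll12 shift to the left.

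Set by class, both testis alpha-tubulins rose, as did Tubb4b. Of the 9 tested alpha- and beta-tubulins classed as somatic, 2 rose (Tubb3 and Tubb6) and 5 fell (Tuba1a, Tuba1b, Tubb2a, Tubb2b and Tubb5), with a median log2 difference of -0.29. After quantile normalization 1 of these 9 rose and 7 fell, and after median centring 2 rose and 7 fell. Of the 5 ligase genes classed by sperm defects in mouse mutants (Ttll1, Ttll3, Ttll5, Ttll8 and Ttll9), 4 rose and 0 fell. Of the other 8 tested 4 rose and 3 fell. Ttll8 in the first set and Ttll6, Ttll10 and Ttll11 in the second passed the filter only through differentiation. The Ttll3 call in the first set and the Ttl call in the second were lost when any 1 library was left out. These counts stand beside 29.6% higher and 27.0% lower among all features tested. No test compared the classes.

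Genes that act on the same tubulin tails were read from the same fit. Each count stands beside the 29.6% higher and 27.0% lower of all features tested. Enzymes that shorten glutamate chains rose in 5 of 5 tested, with a median log2 difference of 1.67. Of these, Agbl2 and Agbl4 had control means of 0.466 and 0.380 FPKM and passed the filter only through differentiation. Agbl2 went from 0.466 ± 0.0407 to 11.9 ± 0.457 FPKM, Agbl5 from 7.35 ± 0.0282 to 34.2 ± 0.00877 FPKM, and Agbl3 from 2.57 ± 0.0528 to 10.4 ± 0.352 FPKM (SD over 2 libraries; adjusted p = 1.21e-04, 8.09e-05 and 2.05e-04 in limma). Agtpbp1, whose loss causes degeneration of Purkinje cells and defective sperm in mice, had a log2 difference of 0.68, and Agbl4, outside the naming rule, 0.85. Partners of Ttll1 in the glutamylase complex rose in 3 of 4 and fell in 0: Nicn1, Lrrc49 and Tpgs2 had log2 differences of 0.93, 0.87 and 0.23, and Tpgs1 was at 5.18 ± 0.343 and 4.68 ± 0.476 FPKM (limma adjusted p = 0.310). On the tyrosine side, the carboxypeptidases Vash1 and Vash2, which remove the tyrosine that Ttl restores, fell as Ttl did. Control and differentiation means were 2.68 ± 0.0371 and 1.25 ± 0.0634 FPKM for Vash1, and 2.56 ± 0.154 and 1.28 ± 0.212 FPKM for Vash2. Their partner Svbp was at 2.32 ± 0.00221 and 2.70 ± 0.0883 FPKM (limma adjusted p = 0.170).

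Of the enzymes of tubulin acetylation, the acetyltransferase Atat1 rose by 0.28 on the log2 scale. The deacetylases went both ways: Sirt2 rose by 1.25 and Hdac6 fell by 0.43. Microtubule-severing proteins rose in 5 of 7 tested and fell in 1, with a median of 0.84, where 29.6% of all features tested rose and 27.0% fell. Katnal2, a katanin-like protein needed for sperm formation, went from 1.52 ± 0.257 to 9.20 ± 0.0835 FPKM, and Fignl1 from 11.0 ± 0.359 to 30.7 ± 0.334 FPKM (SD, n = 2 per group). Spast and Katnal1 had log2 differences of 0.84 and 0.93. The member that fell was Katna1, named after its value was seen, at 12.7 ± 0.0481 and 9.84 ± 0.288 FPKM. Of 10 genes around gamma-tubulin 7 rose, unlike Tubg1, and 2 fell, beside the same 29.6% and 27.0%. The median of this list was 0.27. Mzt1, Tubgcp2 and Nme7 rose by 0.57, 0.60 and 0.35. Other rises were small, such as 0.13 in Nedd1 and 0.19 in Tubgcp4, both outside the naming rule. Tubgcp5 fell by 0.38 and Tubgcp3, outside the naming rule, by 0.15.

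Among the folding factors of tubulin 5 of 14 rose and 1 fell, with a median of 0.11. The member that fell was Pfdn2, a prefoldin subunit outside the naming rule, by 0.52. Tbcel, Pfdn5, Tbcc and Tbca, which act on tubulin before or after it enters the dimer, had log2 differences of 0.85, 0.57, 0.38 and 0.83. In the chaperonin that folds tubulin and actin, 5 of 9 subunits rose and 3 fell. Cct6b, the testis copy of Cct6a, went from 0.653 ± 0.00852 to 16.8 ± 0.907 FPKM, Tcp1 from 58.8 ± 0.452 to 118 ± 0.782 FPKM, Cct7 had a log2 difference of 0.29, and Cct2 fell from 88.9 ± 1.25 to 72.8 ± 0.568 FPKM (SD over the 2 libraries of a group). Of 2 stathmins tested, which bind free tubulin dimers, Stmn1 rose (19.9 ± 0.190 in control, 27.8 ± 1.02 FPKM in differentiation) and Stmn3 did not pass (limma adjusted p = 0.523). Over these 9 lists 33 genes rose and 10 fell of 57 tested (29 and 16 after quantile normalization), beside 29.6% and 27.0% of all features. The spermatocyte markers rose and the fibroblast markers fell in the same libraries, and their part in these counts was not tested.

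**Figure D5:**
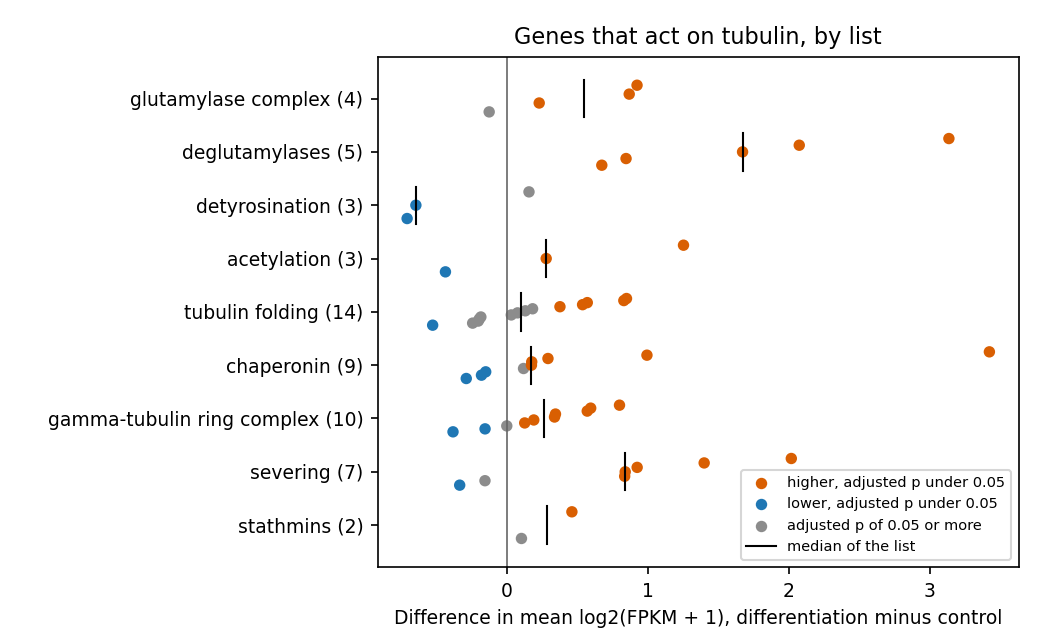
Differences in mean log2(FPKM + 1), differentiation minus control, for the tested genes of 9 lists that act on tubulin (number tested in parentheses), coloured by call, with a black line at the median of each list. The 5 deglutamylases all lie to the right of 0 with a median of 1.67, and 2 of the 3 detyrosination genes lie to the left.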

How the data were processed

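Total RNA depleted of ribosomal RNA was sequenced in 4 libraries, per the labels' protocols. HISAT2 and GRCm38 are named in the submitters' processing notes; annotation, counter and strand setting: not given in the sources used here. Deposited by the authors were FPKM values for each library, a log2 fold change, and a p-value with its adjusted form, by an unnamed test.

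FPKM and merged exon lengths (GENCODE M21, 31536 of 31600 identifiers) gave scales of 17772300 to 20649600 fragments per library, at which 96.2% of features under 300 fragments were whole within 0.05. Fragment numbers come from these scales and cover counting only.

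Differences were fitted in limma (3.58.1, run under R 4.3.3) to log2(FPKM + 1) of the 23138 features whose mean reached 0.5 FPKM, with group as the only term, an intensity trend in the prior (2 residual degrees of freedom, prior 2.14), two-sided, Benjamini-Hochberg adjusted p under 0.05. Values in every library are given for genes called with a log2 difference of at least 0.5 and for genes with a mean of at least 20 FPKM; of each tubulin-acting list the 4 genes of smallest p are named and of a marker list up to 3 of the highest mean FPKM. The remaining genes are given because all 33 are accounted for, and single exceptions to a count are named after their values were seen. The gene family, lists, classes and motifs were chosen with earlier results of these data known; membership follows names alone.

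Libraries of a group correlated at a Spearman's rho of 0.970 over features. Features with ribosomal-RNA-like sequence held 20.8% to 22.6% of fragments in control and 17.7% to 18.3% in differentiation. Alternatives were the pseudocount, filter, scaling, prior, limma-voom on fragments, the replicate block and the omission of each library in turn. Shared 100-base and 50-base stretches were counted over GENCODE M21 transcripts. Python 3.11.15, pandas 2.3.3 and numpy 2.4.6 were used.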

Additional observations from a re-analysis of the deposited data

How the results depend on the processing

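Over 13 alternatives, the 29 tested genes gave 339 values on the same side of the threshold and in the same direction as reported, 19 that no longer passed, 12 that newly passed and 0 that turned direction. The losses were in Tuba1a, Tubb6, Ttl and Ttll3 and the gains in Tuba1c, Tuba4a, Tubg2, Tube1 and Ttll10. Tubg2, Ttll6, Ttll7, Ttll8, Ttll9, Ttll10 and Ttll11 were under the alternative filter of a mean of 2 FPKM and have no value there. Median centring and quantile normalization shifted the median of all features by -0.07 and -0.10 on the log2 scale. Genes acting on tubulin that fell numbered 10 as reported, 16 after quantile normalization and 6 to 10 when leaving out 1 library, with 6 without differentiation replicate 1; the cause was not tested. With the replicate block 13 of the 29 genes rose and 9 fell, with Ttll3 lost. Deviations of same-numbered libraries correlated at -0.000408 over features, so the numbers were not taken to pair the libraries. Tuba8, Tubb1, Tubb4a and Ttll2 had 2 to 13 fragments per library and were not tested.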
